A study of Homo sapiens with 10 samples.

Results

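The genes described here encode laminin chains, a nidogen, perlecan, agrin and the main collagen IV chains of basement membranes, and were chosen by symbol: LAMA4, LAMA5, LAMB1, LAMB2, LAMC1, NID1, HSPG2, AGRN, COL4A1 and COL4A2. All 10 were matched to 1 row each of the 58050 genes in the deposited table. They were followed in HCT116 cells, a human colorectal carcinoma line, as HCT116-WT cultures and as HCT116-CD276KO cultures, in which CD276 had been targeted with Cas9 and a guide RNA, with 5 libraries of polyadenylated RNA in each group. The HCT116-CD276KO cultures came from 1 single cell clone, so the replicates carry the spread between cultures and a group difference is that of this clone against the parental line. The protocol names a scrambled guide as control, but whether the sequenced HCT116-WT cultures had received it is not given in the sources used here.

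Basement membranes are thin sheets of matrix beneath epithelia. Laminins are trimers of an alpha, a beta and a gamma chain: laminin-511 joins the products of LAMA5, LAMB1 and LAMC1, laminin-521 has LAMB2 in place of LAMB1, and laminin-411 has LAMA4 in place of LAMA5. The laminin sheet is anchored to cells by integrins and dystroglycan, and is tied by nidogen, perlecan and agrin to a separate network of collagen IV, whose most widespread form is built from COL4A1 and COL4A2. In the colon these proteins come from both the epithelium and the cells beneath it.

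Promoter sequences from RefSeq on GRCh38.p14 were matched for 9 of the 10 genes, and AGRN had no entry. Those of the chains of laminin-511 are shown as the promoters of genes whose products form 1 trimer, each with up to 250 bases before the start site on the strand of the gene. The LAMB1 sequence is the upstream part of its window, which stops where annotated exons begin. The stretch between COL4A1 and COL4A2 is shown beside them because these genes are transcribed away from each other and were both close to 0 in these cells. Their RefSeq start sites have 126 bases between them. The GENCODE bounds given below overlap instead, with COL4A2 from 110305812 and COL4A1 up to 110307157. The stretch is given on the plus strand for the 100 bases that lie outside all annotated exons. Capitals mark matches on either strand to the GC box GGGCGG or the CCAAT box CCAAT.
LAMA5, chr20:62367313-62367562, minus strand: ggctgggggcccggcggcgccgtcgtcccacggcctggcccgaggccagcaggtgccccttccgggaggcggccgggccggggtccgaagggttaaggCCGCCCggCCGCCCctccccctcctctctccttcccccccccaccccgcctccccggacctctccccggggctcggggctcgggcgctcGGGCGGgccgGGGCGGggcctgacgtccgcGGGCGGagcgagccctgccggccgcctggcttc
LAMB1, chr7:108003214-108003411, minus strand: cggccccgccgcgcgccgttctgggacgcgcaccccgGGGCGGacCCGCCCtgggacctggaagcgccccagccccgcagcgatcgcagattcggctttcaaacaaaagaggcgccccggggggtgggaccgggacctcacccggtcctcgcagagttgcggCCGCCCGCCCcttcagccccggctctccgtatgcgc
LAMC1, chr1:183023170-183023419, plus strand: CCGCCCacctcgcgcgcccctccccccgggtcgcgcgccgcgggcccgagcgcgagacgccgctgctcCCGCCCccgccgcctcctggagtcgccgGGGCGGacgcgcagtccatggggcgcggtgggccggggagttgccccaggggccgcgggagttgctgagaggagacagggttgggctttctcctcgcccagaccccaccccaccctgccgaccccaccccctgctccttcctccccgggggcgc
COL4A1 to COL4A2, chr13:110307158-110307257, plus strand: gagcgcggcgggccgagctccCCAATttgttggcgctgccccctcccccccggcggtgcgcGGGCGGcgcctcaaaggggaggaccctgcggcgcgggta

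The GC box occurred 5 times in the LAMA5 window, 4 times in that of LAMB1, where a pair of matches overlap, and 3 times in that of LAMC1, and 42.3% of all 27305 promoter windows of this length held at least 1. The stretch between COL4A1 and COL4A2 held 1 GC box and 1 CCAAT box, which are found in 31.3% and 18.7% of windows of 100 bases. Its GC content of 78.0% was close to the 79.6% of the LAMC1 window, so the near-silent pair and the most abundant member did not differ much in this measure. LAMA4 stood apart, with a GC content of 48.4% and no match to either box. Neither the TATA box TATAAA nor the AP-1 site TGANTCA, in 11.1% and 6.60% of all windows of 250 bases, was found in any of the 9 windows. These matches describe letters and not bound sites.

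The values are TPM as the authors deposited them, divided by transcript length and scaled to the same total, so that levels of different genes can be compared, but the table does not give the number of reads behind a value. Genes averaging 1 TPM or more, 13581 in number, were compared on log2(TPM + 1) with limma, with Benjamini-Hochberg adjustment. In this scaling the typical gene was slightly lower in HCT116-CD276KO cells, with a median of -0.086, and the changes below are to be read against it. CD276 itself stood between 38.08 and 53.61 TPM in HCT116-WT libraries and between 4.4 and 7.42 TPM in HCT116-CD276KO libraries. The epithelial markers EPCAM, CDH1, KRT8, KRT18 and KRT19 were present in all libraries. Their summed levels were 4173 to 4942 TPM in HCT116-WT and 3306 to 3773 TPM in HCT116-CD276KO cells. All 5 were called lower by limma, against 4.09% of all genes tested. All 5 were also called lower after the length and GC correction described below, where 9.55% of all genes were called in either direction. With median-of-ratios scaling only CDH1 was called, and with quantile normalization EPCAM was not (adjusted p-value 0.0524 from limma). Fibroblast markers summed to between 6.02 and 8.99 TPM and between 4.54 and 7.51 TPM, nearly all of it COL1A1, while 6 of the 7, among them DCN, LUM and COL3A1, were under 1 TPM in every library. All 5 endothelial markers and 4 of the 5 macrophage markers, all but CD68, were also under 1 TPM in every library. The libraries were not alike in their balance of long and short transcripts. Taken across genes, the rank correlation (Spearman) between transcript length and the deviation of a library from the gene means ran from -0.52 and -0.49 in HCT116-CD276KO replicates 2 and 3 to 0.43 in HCT116-WT replicate 1. The members are long, between the 82.0th and the 99.2nd percentile of tested genes. The corresponding correlation with GC content was highest in HCT116-WT replicate 3 (0.61) and HCT116-CD276KO replicate 2 (0.48), and HCT116-WT replicate 3 held the highest value of LAMA5 and AGRN, whose transcripts are 66.4% and 67.6% GC. The changes of the members are therefore also given after the trends with length and GC content were removed from each library.

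Of the 10 members, 7 averaged 1 TPM or more and entered the test, and NID1, COL4A1 and COL4A2 did not. AGRN and LAMA4 were lower in HCT116-CD276KO cells at an adjusted p-value under 0.05, and no member was higher. LAMA4 passed the filter on low values only through the HCT116-WT libraries, since every HCT116-CD276KO library was under 1 TPM. Over all genes tested 4.87% were called, 4.09% lower and 0.781% higher. This split of 556 lower and 106 higher genes depended on the scaling, and became 389 and 191 with median-of-ratios scaling and 385 and 253 with quantile normalization, without a change in the calls of the members. No member was also past 2-fold on the log2(TPM + 1) scale, as 0.486% of all genes were. AGRN and LAMA4 were also the only tested members whose groups did not overlap, against 7.61% of all genes. The median log2 fold change of the 7 was -0.20. After the length and GC correction AGRN alone was called, against 9.55% of all genes (757 lower and 530 higher), and the median was -0.011 against 0.0025 for all genes.

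By mean level over the 10 libraries LAMC1 came first with 58.8 TPM, followed by LAMB1 with 24.0, LAMA5 with 20.0, LAMB2 with 18.5, HSPG2 with 12.5, AGRN with 12.3 and LAMA4 with 1.49 TPM. LAMC1 was above LAMB1, LAMB2 above HSPG2, and AGRN above LAMA4 in all 10 libraries. The neighbours in between could not be ordered with the same certainty. LAMB1 was above LAMA5 in 8 of the 10 libraries, LAMA5 above LAMB2 in 7, and HSPG2 above AGRN in 6, of which 2 were HCT116-WT and 4 were HCT116-CD276KO libraries.

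LAMA5 (ENSG00000130702, chromosome 20, 62307955 to 62367312, minus strand, 80 exons) encodes the alpha 5 chain that defines laminin-511 and laminin-521. It stood at 18.26, 18.82, 26.19, 22.88 and 21.01 TPM in HCT116-WT replicates 1 to 5 and at 19.49, 20.06, 17.49, 13.24 and 22.72 TPM in the HCT116-CD276KO replicates in the same order. The ranges overlapped, with the highest value in HCT116-WT replicate 3 and the lowest in HCT116-CD276KO replicate 4. The log2 fold change was -0.20 (95% interval -0.51 to 0.10, adjusted p-value 0.388 from limma). Correcting for length and GC moved this to 0.038.

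LAMB1 (ENSG00000091136, chromosome 7, 107923799 to 108003213, minus strand) encodes the beta chain of laminin-511 and laminin-411. Its values were 28.15, 25.63, 22.26, 25.30 and 26.86 TPM in HCT116-WT and 25.54, 16.05, 21.11, 23.05 and 26.36 TPM in HCT116-CD276KO replicates 1 to 5. Only HCT116-CD276KO replicates 2 and 3 lay below every HCT116-WT library. The log2 fold change was -0.20 (95% interval -0.47 to 0.067, adjusted p-value 0.341 from limma), and -0.011 after the correction. LAMB2 (ENSG00000172037, chromosome 3, 49121114 to 49133118, minus strand), the beta chain of laminin-521, had means of 18.4 ± 2.03 TPM and 18.5 ± 2.67 TPM (SD, n = 5). Its log2 fold change was 0.0026 (95% interval -0.23 to 0.24), and 0.17 after the correction.

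LAMC1 (ENSG00000135862, chromosome 1, 183023420 to 183145592, plus strand, 28 exons) encodes the gamma 1 chain shared by most laminins. Its values were 82.01, 65.17, 65.55, 56.42 and 76.15 TPM in HCT116-WT replicates 1 to 5, and 63.94, 30.13, 38.78, 52.33 and 57.37 TPM in the HCT116-CD276KO replicates in the same order. HCT116-CD276KO replicates 2 and 3 were the lowest libraries, while replicates 1 and 5 of the same group lay above HCT116-WT replicate 4. The means were 69.1 ± 10.1 TPM and 48.5 ± 13.8 TPM (SD, n = 5). The log2 fold change was -0.54 (95% interval -0.94 to -0.13), which did not pass the threshold over all genes (adjusted p-value 0.124 from limma), although the two-sided exact permutation test of this gene alone gave p = 0.0238. The corrected value was -0.31 (adjusted p-value 0.10 from limma). Without the correction, but also without HCT116-CD276KO replicates 2 and 3, the libraries with the strongest trend to shorter transcripts, the log2 fold change was -0.24, an omission chosen after the data had been seen. The part of this trend in the lower LAMC1 values was not tested.

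**Figure D1:**
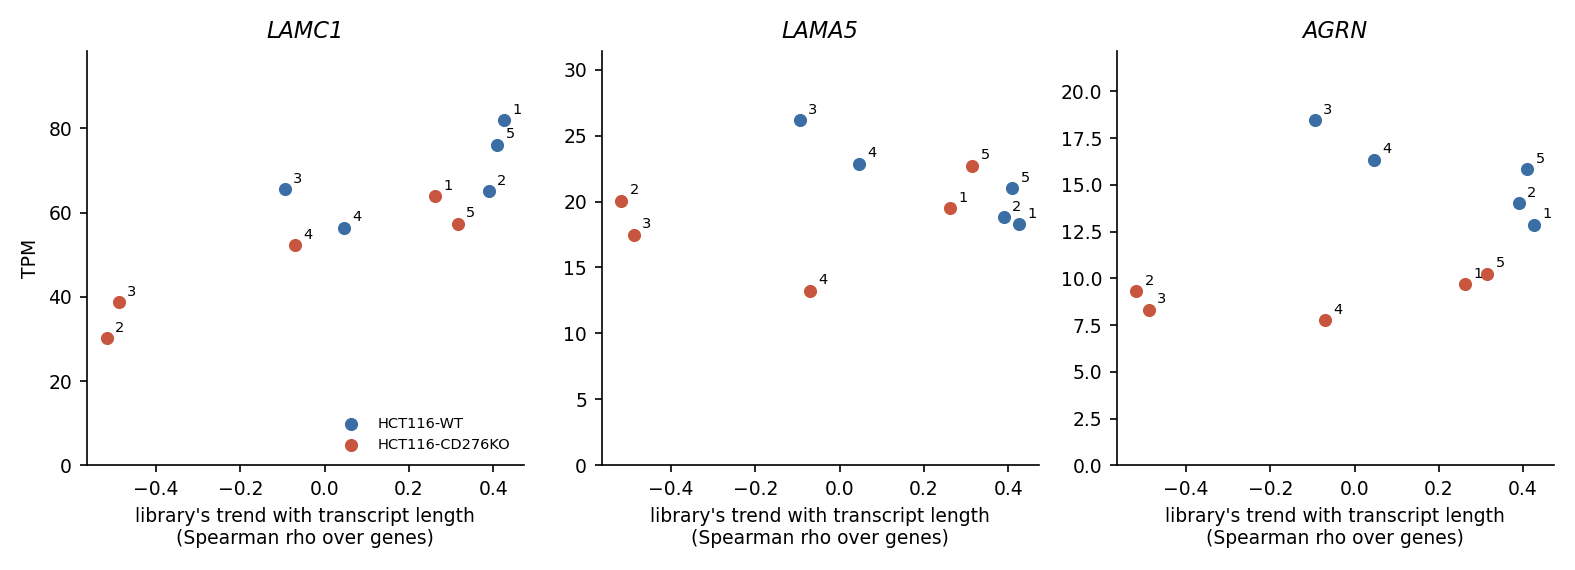
TPM of LAMC1, LAMA5 and AGRN (vertical axes, from 0) against the Spearman correlation, over genes, of each library's deviations with transcript length (horizontal axes), with replicate numbers beside the points. LAMC1 was lowest, at 30.13 and 38.78 TPM, in HCT116-CD276KO replicates 2 and 3, which have the most negative trends. AGRN was lower in every HCT116-CD276KO library than in any HCT116-WT library, but no HCT116-WT library had a trend below -0.094.

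LAMA4 (ENSG00000112769, chromosome 6, 112107931 to 112254939, minus strand, 39 exons) encodes the alpha 4 chain of laminin-411, best known from blood vessels and other mesenchymal tissue. It stood at 1.93, 1.49, 2.88, 2.15 and 2.38 TPM in HCT116-WT replicates 1 to 5 while the HCT116-CD276KO replicates held 0.71, 0.98, 0.76, 0.72 and 0.85 TPM. Every HCT116-CD276KO library was under every HCT116-WT library. The means were 2.17 ± 0.52 TPM and 0.804 ± 0.113 TPM (SD, n = 5). The knockout cultures held 37.1% of the HCT116-WT level. On the log2(TPM + 1) scale, which understates changes at such low levels, the difference was -0.80 ± 0.13 (standard error; adjusted p-value 0.00441 from limma), and the log2 ratio of the mean TPM was -1.43. The exact permutation test gave p = 0.00794, the smallest that 5 against 5 allow. After the length and GC correction the groups overlapped, and the difference was -0.58 (adjusted p-value 0.0673 from limma). That correction subtracts the same shift at every expression level, also from a gene near 1 TPM, and its effect on genes at low levels was not tested. Endothelial markers, and the fibroblast markers other than COL1A1, were under 1 TPM in every library, but LAMA4 itself was only at 0.71 to 2.88 TPM. Which cells its RNA came from was not tested.

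The relation of the chains within a library was compared for 5 pairs, as log2 ratios of TPM with two-sided exact permutation tests. LAMA5 exceeded LAMA4 by 8.83-fold to 12.6-fold in HCT116-WT and by 18.4-fold to 27.5-fold in HCT116-CD276KO libraries, with no overlap. The mean log2 ratio rose from 3.33 to 4.52 (exact permutation p = 0.00794, adjusted over the 5 ratios 0.0397). This difference of 1.19 was 0.59 for ratios of TPM + 1, and on that scale 0.64 with quantile normalization and 0.62 after the length and GC correction. The ratio draws on the same LAMA4 values as the LAMA4 test, so it is no separate evidence of a change between alpha chains. LAMA5 itself was not called (log2 fold change -0.20, adjusted p-value 0.388 from limma). For LAMA4 the knockout values were only 0.71 to 0.98 TPM, and its own call was lost after the correction (adjusted p-value 0.0673 from limma). Because the groups did not overlap in the LAMA5 to LAMA4 ratio, leaving any 1 library out could not make them do so. The exact permutation p was then bound to be 0.0159, the smallest that the remaining libraries allow. Adjusted over the 5 ratios it was 0.0397 without HCT116-WT replicate 4 or HCT116-CD276KO replicate 3, and 0.0794 with each other omission. This depended on the p-values of the other ratios alone, so it says nothing on the omitted libraries for LAMA5 to LAMA4. The LAMB1 to LAMC1 ratio had medians of 0.353 and 0.459, a log2 difference of 0.34 (exact permutation p = 0.0317, adjusted over the 5 ratios 0.0529). HSPG2 to AGRN had medians of 0.866 and 1.22, a log2 difference of 0.60 (exact permutation p = 0.0238, adjusted over the 5 ratios 0.0529). Neither of these passed once adjusted, but HSPG2 to AGRN did so after the length and GC correction (adjusted exact permutation p = 0.0198). The LAMB1 to LAMB2 ratio, which separates laminin-511 from laminin-521, was at a median of 1.35 in HCT116-WT and 1.15 in HCT116-CD276KO libraries, and the LAMA5 to LAMC1 ratio at 0.289 and 0.396, with exact permutation p-values of 0.317 and 0.286. The COL4A1 to COL4A2 ratio was not formed because libraries were listed at 0.

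Among all alpha chains LAMA5 held a median of 75.6% of the summed TPM in HCT116-WT and 78.3% in HCT116-CD276KO libraries, and LAMA4 7.42% and 3.46%. LAMA2 was the next most abundant alpha chain, at 4.16 ± 1.3 TPM and 3.29 ± 0.62 TPM (SD, n = 5), while LAMA1 was listed at 0 in every library. LAMB1 held 37.5% and 40.3% of the beta chains. The share of LAMB2 was at a median of 27.6% and 33.7%, beside that of LAMB3 at 35.9% and 26.5%. These shares are fractions of a sum, so a smaller share of one chain raises the others.

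**Figure D2:**
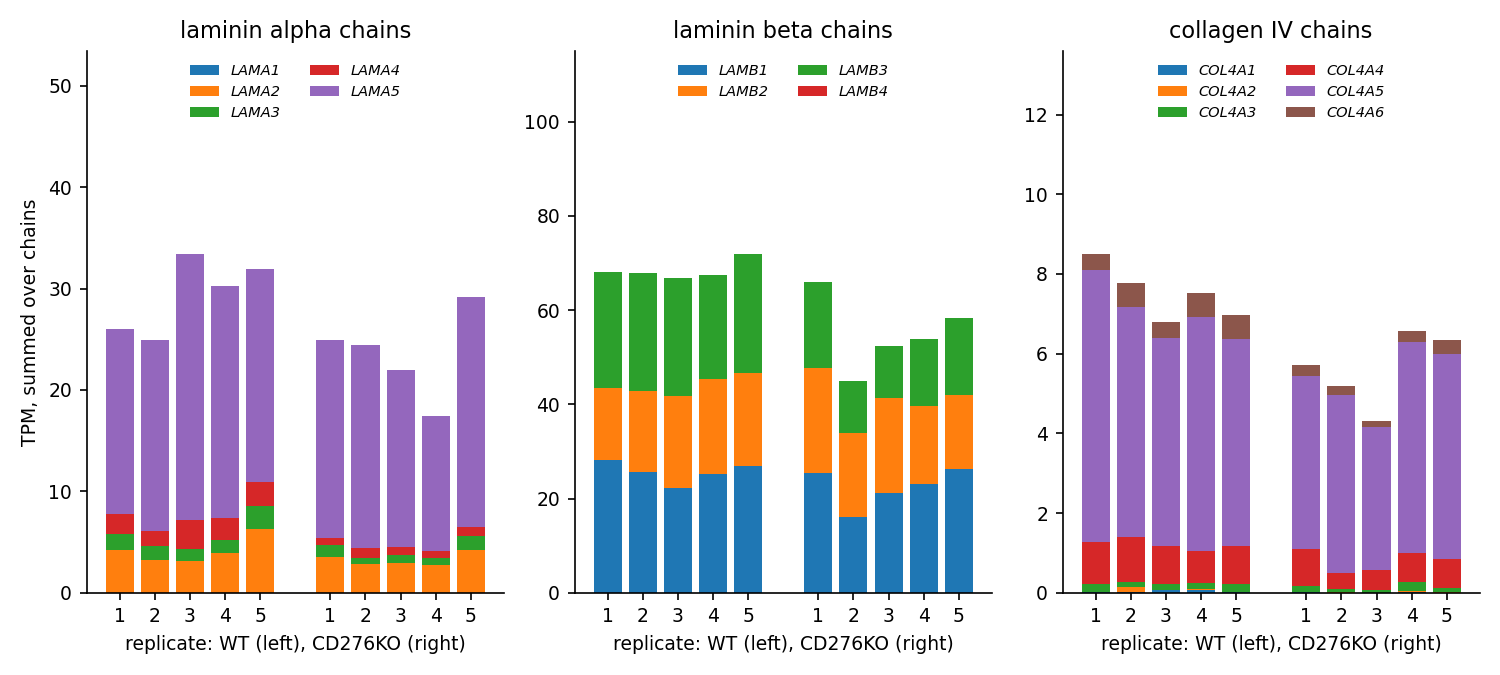
TPM of the laminin alpha and beta chains and of the collagen IV chains, stacked in each of the 5 HCT116-WT (left) and 5 HCT116-CD276KO libraries (right). LAMA5 and COL4A5 make up most of their class in every library, and the COL4A1 and COL4A2 segments are barely visible.

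AGRN (ENSG00000188157, chromosome 1, 1020120 to 1056118, plus strand, 36 exons) encodes agrin, a heparan sulphate proteoglycan that binds laminin and dystroglycan and is best known for clustering acetylcholine receptors at the neuromuscular junction. It stood at 12.87, 14.01, 18.48, 16.35 and 15.86 TPM in HCT116-WT replicates 1 to 5, while the HCT116-CD276KO replicates held 9.68, 9.31, 8.33, 7.75 and 10.26 TPM. The groups did not overlap, the highest HCT116-CD276KO library lying below the lowest HCT116-WT library. It fell from 15.5 ± 2.17 TPM to 9.07 ± 1.02 TPM (SD, n = 5), or by 0.71 ± 0.11 on the log2 scale (standard error; adjusted p-value 0.00275 from limma, exact permutation p = 0.00794). After the length and GC correction the groups still did not overlap and the difference was -0.52 (adjusted p-value 0.00146 from limma). In the RNA of a whole culture, fewer cells that express a gene and less RNA per cell cannot be told apart.

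HSPG2 (ENSG00000142798, chromosome 1, 21822244 to 21937310, minus strand, 97 exons) encodes perlecan, the other large heparan sulphate proteoglycan of basement membranes. It ranged from 10.19 to 14.41 TPM in HCT116-WT and from 8.12 to 15.59 TPM in HCT116-CD276KO libraries. Its log2 fold change was -0.15 (95% interval -0.47 to 0.17, adjusted p-value 0.546 from limma) and turned to 0.11 after the length and GC correction. The two-sided exact permutation tests gave p = 0.238 for LAMA5, 0.159 for LAMB1, 0.984 for LAMB2 and 0.381 for HSPG2. The HCT116-CD276KO group held both the lowest and the highest value of HSPG2.

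The tested genes on either side of AGRN and LAMA4 were looked up after the values had been seen. Upstream of AGRN, ISG15 had means of 104 and 119 TPM and HES4 of 44.7 and 42.2 TPM, with adjusted p-values of 0.386 and 0.827 from limma. ENSG00000242590, which lies within the last part of AGRN on the same strand, so that reads there may be counted to either, had means of 7.44 and 5.97 TPM (adjusted p-value 0.270 from limma). ENSG00000217801, the next gene downstream, had means of 11.7 and 7.61 TPM without overlap between the groups and an adjusted p-value of 0.05002 from limma that lay just above the threshold. The tested genes nearest to LAMA4 were FAM229B and TUBE1 on one side and the pseudogene RPS27AP11 and MARCKS on the other. RPS27AP11 and MARCKS start at 113581501 and 113857345, whereas LAMA4 ends at 112254939, so they lie far from it. The log2 fold changes of these genes ran from -0.10 to 0.46, and none of them was called.

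**Figure D3:**
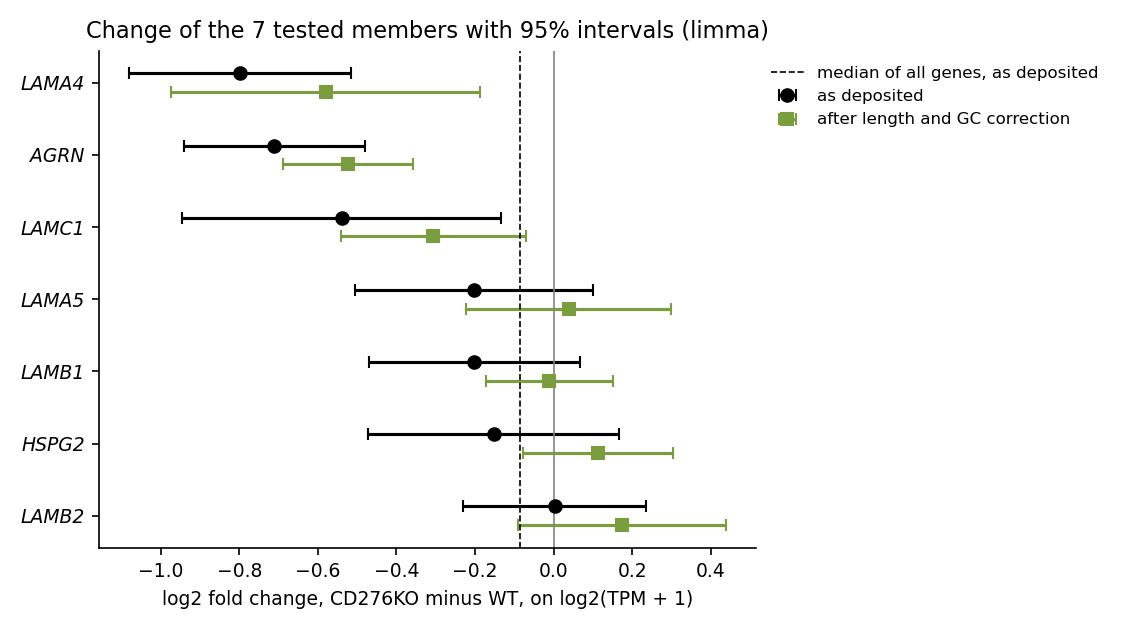
Log2 fold change of the 7 tested genes (horizontal axis, HCT116-CD276KO minus HCT116-WT on log2(TPM + 1)) with 95% intervals from limma, on the values as deposited (circles) and after the length and GC correction (squares). The dashed line is the median of all genes as deposited, -0.086. The correction moved all 7 genes upward, and both intervals of LAMA4, AGRN and LAMC1 lay wholly below 0.

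Collagen IV of the common form was listed at or close to 0. COL4A1 (ENSG00000187498, chromosome 13, 110148963 to 110307157, minus strand) was listed at 0.01, 0.01, 0.07, 0.08 and 0.02 TPM in HCT116-WT replicates 1 to 5, and the HCT116-CD276KO replicates read 0.03, 0, 0, 0.01 and 0 TPM. COL4A2 (ENSG00000134871, chromosome 13, 110305812 to 110513209, plus strand) was listed at 0, 0.14, 0.01, 0.01 and 0.01 TPM and at 0, 0.01, 0, 0.04 and 0.01 TPM. Both genes were near the smallest step of the table in both groups, so no change could be measured. NID1 (ENSG00000116962, chromosome 1, 235975830 to 236065109, minus strand), the nidogen that links laminin to collagen IV, was listed at 0.01, 0.03, 0.02, 0.02 and 0.01 TPM and at 0.01, 0, 0.01, 0 and 0 TPM. In a fit that took in all genes above 0 TPM the adjusted p-values of these 3 genes were 0.477, 0.708 and 0.461 from limma. The collagen IV chain present at a higher level was COL4A5, which pairs with other chains of the family, with means of 5.78 ± 0.66 TPM and 4.57 ± 0.69 TPM (SD, n = 5) and overlapping groups (adjusted p-value 0.148 from limma). COL4A3, COL4A4 and COL4A6 had means of 0.16, 0.98 and 0.51 TPM in HCT116-WT and of 0.13, 0.66 and 0.26 TPM in HCT116-CD276KO cells. They fell under the filter and were not tested. The groups of COL4A6 did not overlap, as with 7.61% of tested genes. COL4A5 and these chains were named after their values were seen.

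Other genes of basement membranes were grouped into lists by function. The counts of each list stand beside a share of 4.09% lower among all genes tested. After the length and GC correction 9.55% of 13472 genes were called in either direction, 757 lower and 530 higher. Of the 10 genes called in these lists 9 were also called after that correction, with log2 fold changes from -0.86 to -0.31. Of 6 other laminin chains 4 were tested and 1 was lower, LAMB3, a beta chain of epithelial laminin, from 24.4 to 14.1 TPM (log2 fold change -0.77, adjusted p-value 0.00513 from limma). Of 20 other basement membrane components 7 were tested and 2 were lower. TINAGL1, a laminin-binding matrix protein, went from 41.2 ± 2.32 TPM to 21.5 ± 1.87 TPM (SD, n = 5), or -0.91 on the log2 scale, and FBLN1, a fibulin, from 18.3 to 13.6 TPM. VWA1, which binds perlecan and had the highest mean level of the list after TINAGL1, had means of 28.2 and 26.6 TPM and was not called. No gene of either list was higher, except that FRAS1, a matrix protein of epithelial basement membranes, was called higher after the length and GC correction (log2 fold change 0.31, adjusted p-value 0.0165 from limma). The medians of the tested genes were -0.34 and -0.29, and -0.088 and -0.080 after the correction.

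Of 17 receptors for basement membrane proteins 13 were tested, 1 was lower and none was higher, with a median of -0.26 and a corrected one of -0.10. The lower gene was MCAM, an adhesion molecule that binds the alpha 4 chain of laminin, at 24.2 ± 1.2 TPM and 14.6 ± 1.21 TPM (SD, n = 5), or -0.70 on the log2 scale (adjusted p-value 0.00015 from limma). The most abundant receptors were ITGB1, the shared beta chain of most laminin-binding integrins, with means of 464 and 391 TPM, and ITGB4, the partner of integrin alpha 6 in hemidesmosomes, with means of 179 and 172 TPM, neither of them called. After the length and GC correction the integrin chains ITGA2 (-0.50) and ITGA6 (-0.48) and the syndecan SDC1 (-0.22) were called lower as well. BCAM, a receptor of the alpha 5 chain named after its values were seen, had means of 10.1 and 10.7 TPM (95% interval of the log2 fold change -0.14 to 0.28).

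Of 21 genes for collagen IV synthesis, export and cross-linking 20 were matched and 18 tested, with 2 lower, 0 higher, a median of -0.20 and a corrected one of -0.094. P3H3, a collagen prolyl hydroxylase, went from 15.6 to 10.7 TPM, and P4HA2, a catalytic chain of prolyl 4-hydroxylase, from 34.6 to 28.1 TPM. The call of P4HA2 was lost with median-of-ratios scaling, quantile normalization and the length and GC correction (adjusted p-values 0.0986, 0.121 and 0.207 from limma) and that of P3H3 with quantile normalization (0.0920), whereas PLOD3, a lysyl hydroxylase, was called lower after the correction (-0.27, 0.0145). The most abundant of them were P4HB, the other chain of prolyl 4-hydroxylase and a disulphide isomerase, with means of 819 and 729 TPM, and PPIB, a prolyl isomerase, with means of 535 and 514 TPM.

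Of 20 genes for the glycans of dystroglycan and of heparan sulphate proteoglycans 18 were tested, with 2 lower, 0 higher and a median of -0.18, which was -0.0063 after the correction. XYLT2, which starts the heparan sulphate chains carried by agrin and perlecan, went from 17.9 to 12.2 TPM (log2 fold change -0.52, adjusted p-value 0.00727 from limma), and EXTL3, which adds the first sugar of the repeating chain, from 46.4 to 32.1 TPM (-0.54, 0.0394). EXT2 and POMGNT1, the most abundant of the list, had means of 53.5 and 46.1 TPM and of 51.8 and 45.7 TPM and were not called. Of 15 proteases and inhibitors 11 were tested, with 2 lower and 0 higher and a median of -0.15, which was -0.019 after the correction. CTSL, a lysosomal protease that can also act on matrix, went from 63.8 ± 7.26 TPM to 38.8 ± 2.06 TPM (SD, n = 5), and MMP7, an epithelial metalloproteinase, from 2.25 to 0.976 TPM, so that it passed the filter on low values only through the HCT116-WT libraries. CTSB and TIMP1 were the most abundant of the list and were not called. In these lists FRAS1, ITGA2, ITGA6, SDC1 and PLOD3 were named after their values were seen.

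The genes whose pattern was most like that of LAMC1, the most abundant member, were taken by Pearson correlation of log2(TPM + 1) over the 10 libraries among the other 13580 tested genes. They were PARP14, USP54, NAV1, ENSG00000203546 and MCTS2, with r from 0.981 to 0.986. Their transcripts ran from 474 to 13891 bases, so that long and short ones were among them. Within the groups, with the group means removed, r was between 0.967 and 0.990, and after the length and GC correction between 0.910 and 0.966. The genes were picked for their r over these same libraries, so these values are no independent evidence of a shared pattern. The points share the same libraries and their depth. None of the 5 genes was called between the groups.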

How the data were processed

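Single-read RNA sequencing covered 5 HCT116-WT and 5 HCT116-CD276KO cultures. The authors used STAR (2.5.2b) on GRCh38, quantified Ensembl genes with RSEM (1.3.0) and featureCounts (1.5.1), per the labels, and deposited TPM values with 2 decimals. Which program gave the TPM is not given in the sources used here. The TPM hold no read counts, so precision comes from the replicates.

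TPM were analysed as log2(TPM + 1) for 13581 genes averaging 1 TPM or more, with limma (3.58.1, R 4.3.3), a linear model with a variance trend, and Benjamini-Hochberg adjusted p-values. Exact permutation tests were two-sided (scipy 1.17.1). Positions, transcript lengths and GC content were those of GENCODE 44 on GRCh38. The length and GC correction subtracted from each library a local regression (span 0.3) of its deviations, for 13472 genes. Replicate numbers were not taken as pairs. On simulated data with 200 of 13581 genes changed 2-fold, 176 were recovered with 9 false calls. With the correction 175 of 199 were recovered, with 10 false calls. The rate of false calls in the sequenced libraries, with their trends in length and GC content, was not tested.

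The members, lists and tests were chosen with earlier results of these data known. Named were all members, CD276, and in each list the called genes and the 2 with the highest mean TPM. The text says where another gene was picked with its values in view. P-values measure the spread between cultures of 1 clone and of the parental line. Alternatives were another pseudocount, other filters and scalings, a replicate block, the correction, and the omission of libraries. 1 item of the lists is not reported here, and its values enter no count of a list or share of a chain.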

Additional observations from a re-analysis of the deposited data

Results flagged for a closer look

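In 20 groups of 5 values, the 10 genes in each group of libraries, the gap between the highest or lowest value and its nearest neighbour was divided by the range. In 3 of them this share was above 0.71, the limit that chance passes in about 1 of 20 groups. In HCT116-WT replicate 4 HSPG2 stood at 10.19 TPM, whereas its group otherwise spanned 13.49 to 14.41 TPM, a gap of 0.782 of the range. COL4A2 stood at 0.14 TPM in HCT116-WT replicate 2 and at 0.04 TPM in HCT116-CD276KO replicate 4, with the other libraries of each group at or under 0.01 TPM, which is the smallest value above 0 that the table can hold.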

How the results depend on the processing

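AGRN was called by limma in all 19 alternatives, with log2 fold changes from -0.77 to -0.52. LAMA4 kept it in 16 of the 18 in which it was tested. It was lost with the length and GC correction, alone (-0.58, adjusted p-value 0.0673) and with the replicate block (adjusted p-value 0.107), and the filter at 5 TPM left the gene out. The number of members called was therefore 1 in these 3 settings and 2 in all others, also with each library left out in turn (lowest 2, highest 2). LAMC1 was not called in any alternative (adjusted p-values 0.0603 to 0.387). LAMA5 and HSPG2 moved to 0.038 and 0.11 with the length and GC correction, against -0.20 and -0.15, and HSPG2 to 0.016 without HCT116-CD276KO replicates 2 and 3, but they were never called.

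The number of genes called, 662, was 1287 with the length and GC correction, 378 with the replicate block, 339 without HCT116-CD276KO replicates 2 and 3. With single libraries omitted it spanned 343 to 857, and it was lower by over 1.5 times without HCT116-WT replicate 1 (345), 2 (376), 4 (421) or 5 (343) or HCT116-CD276KO replicate 3 (407) or 4 (375). The cause was not tested. The LAMB1 to LAMC1 difference lay between 0.287 and 0.405 with 1 library left out (exact permutation p 0.0159 to 0.0635) and missed 0.05 without HCT116-WT replicate 1, 3 or 5 or HCT116-CD276KO replicate 2, 3 or 5. Before adjustment the other ratios kept their side of 0.05 in all alternatives run. Adjusted over the 5 ratios, LAMA5 to LAMA4, which is not independent of the lower LAMA4 values, passed with all libraries. With 1 library left out its difference was 1.13 to 1.27. Its groups did not overlap with all libraries, so its exact permutation p was bound to be 0.0159 in each, the smallest possible there. The adjusted p therefore depended on the other ratios alone. It was 0.0397 in 2 of the 10 fits (without HCT116-WT replicate 4 or HCT116-CD276KO replicate 3) and 0.0794 in the others. HSPG2 to AGRN passed with the length and GC correction (0.0198) and without HCT116-CD276KO replicate 3 (0.0397), and LAMB1 to LAMC1 without HCT116-WT replicate 4 (0.0397), all by exact permutation tests. Deviations of libraries with the same replicate number correlated between -0.18 and 0.12. Libraries with different numbers were not set beside them, so this cannot show whether the numbers pair the libraries. The pseudocount of 0.1 and the median-of-ratios and quantile scalings changed no call of a member. The TPM hold no read counts, and no change can be measured for genes near 0.01 TPM.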
